A study of Mus musculus with 6 samples.

Results

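The high-voltage-activated calcium channel subunits described here are 10 genes taken by name from the deposited table of 55414 mouse genes. They are 5 genes for the pore-forming α1 subunit (Cacna1a, Cacna1b, Cacna1c, Cacna1d and Cacna1e), 3 for the α2δ subunit (Cacna2d1, Cacna2d2 and Cacna2d3) and 2 for the β subunit (Cacnb3 and Cacnb4). The rule takes genes by name and uses no measured value of theirs, although earlier results of these data were known when the list was drawn up, and each symbol occurs once in the table. RNA sequencing was performed on fluorescent neurons drawn into glass electrodes from papain-digested slices of the medial mammillary nucleus, a hypothalamic relay of the memory circuit between hippocampus and anterior thalamus. The 2 groups are 3 libraries of PV-positive neurons (replicates 6, 7 and 8) and 3 libraries of Drd2-positive neurons (replicates 1, 2 and 3), all from male mice and named after parvalbumin and the D2 dopamine receptor. The labels give neither the allele that made the cells fluoresce nor strain, age, or the number of cells and mice behind a library.

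High-voltage-activated calcium channels open on strong depolarization and turn an action potential into calcium entry. The α1 subunit forms the pore and sets the current type: Cacna1a encodes the P/Q-type, Cacna1b the N-type and Cacna1e the R-type pore, and Cacna1c and Cacna1d encode L-type pores. P/Q- and N-type channels drive transmitter release at most central synapses, and L-type channels link activity to gene expression and slow firing. The α2δ subunit is an extracellular protein that promotes surface delivery of the channel, and the cytoplasmic β subunit binds the loop between the first and second repeats of α1 and modulates trafficking and gating.

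The stretch of that loop that binds β is shown because it is where the products of the α1 and β genes measured here meet. It was located by its conserved residues in the longest open reading frame of each gene in GENCODE M21 (mm10), and the 54 bases that encode it are given 5′ to 3′ on the coding strand, with bases that are identical in all 5 genes in capitals.
Cacna1a: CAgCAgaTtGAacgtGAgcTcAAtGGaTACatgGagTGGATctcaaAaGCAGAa
Cacna1b: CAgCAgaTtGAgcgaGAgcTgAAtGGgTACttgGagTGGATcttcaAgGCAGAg
Cacna1c: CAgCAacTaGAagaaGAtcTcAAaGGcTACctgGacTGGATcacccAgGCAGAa
Cacna1d: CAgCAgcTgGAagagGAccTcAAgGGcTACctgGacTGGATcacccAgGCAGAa
Cacna1e: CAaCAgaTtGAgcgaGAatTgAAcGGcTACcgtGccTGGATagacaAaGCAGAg
The stretches lie at chr8:84536125-84536403 on the plus strand for Cacna1a, and on the minus strand at chr2:24719100-24719992 for Cacna1b, chr6:118734906-118734959 for Cacna1c, chr14:30142600-30142653 for Cacna1d and chr1:154488837-154493353 for Cacna1e. In Cacna1a, Cacna1b and Cacna1e an intron between exons 8 and 9 of the transcript splits the stretch, and in Cacna1c and Cacna1d it lies within exon 9. Of the 54 bases, 29 are shared by all 5 genes, 49 by the L-type pair Cacna1c and Cacna1d, 45 by Cacna1a and Cacna1b, and 34 by Cacna1e with either L-type gene. The residues used for the search occurred once in the reading frame of each of the 5 genes, as the search required. Part of the 29 shared bases follows from them. They occurred in none of the reading frames of the 3 T-type (low-voltage-activated) genes Cacna1g, Cacna1h and Cacna1i. Over whole coding sequences, the longest run of identical bases between 2 of the 5 α1 members was 43 bases, between Cacna1c and Cacna1d. Between Cacnb3 and Cacnb4 it was 23 bases, and among the 3 α2δ members at most 15. A read that lies wholly within such a run could be credited to either gene. Untranslated exons were not compared, and neither read length nor the mismatches allowed in alignment were examined.

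Values are the authors' FPKM, fragments scaled by library depth and by exon length, here that of all annotated exons of a gene merged. This length ran from 4010 bases for Cacnb3 to 25228 bases for Cacna1e, whose coding sequence takes 6819. Levels can thus be compared between genes only roughly. The denominators recovered from low values were 23837400 to 33739900 fragments, and the members' values rest on 81 reads (Cacna2d3 in PV replicate 8, exact 95% Poisson interval 64.3 to 101) to 7727 reads (Cacnb4 in PV replicate 7). These intervals cover counting error only, since copies made by PCR are not independent molecules. Pvalb stood at 349, 482 and 563 FPKM in PV libraries, against 10.4, 22.5 and 99.5 FPKM in Drd2 libraries. Drd2 was at 0.0132 FPKM in PV replicate 6 and listed at 0 in the other PV libraries, against 42.7, 55.0 and 7.74 FPKM in the Drd2 libraries, so within its group Drd2 replicate 3 was highest for Pvalb and lowest for Drd2. The glutamate transporter gene Slc17a6 was at 114 to 144 FPKM in PV and at 108 to 144 FPKM in Drd2 libraries, and the mammillary transcription factor Foxb1 at 4.19 to 24.0 FPKM in PV and 26.4 to 76.4 FPKM in Drd2 libraries. PV replicate 7 had 8610 genes at 1 FPKM or more, against 10293 to 12398 in the other 5 libraries. Summed over 12 microglial markers, the level was 502 to 1797 FPKM in PV and 23.9 to 4068 FPKM in Drd2 libraries, highest in Drd2 replicate 3. Over 10 oligodendrocyte markers it was 69.8 to 337 FPKM in PV and 74.2 to 1467 FPKM in Drd2 libraries, highest in Drd2 replicate 2. Over 9 astrocyte markers it was 539 to 601 FPKM in PV and 162 to 569 FPKM in Drd2 libraries, over 6 markers of oligodendrocyte precursors 10.7 to 24.8 FPKM in PV and 1.67 to 4.35 FPKM in Drd2 libraries, and over 3 GABAergic markers 2.31 to 17.4 FPKM in PV and 0 to 0.859 FPKM in Drd2 libraries. The 4 haemoglobin genes summed to 743 to 3203 FPKM in PV and 0 to 11.5 FPKM in Drd2 libraries. The part of these other cells in the values below was not tested.

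All 10 members had a value above 0 in all 6 libraries, and by mean FPKM the β genes stood highest in both cell types. Cacnb4 averaged 20.1 ± 9.72 FPKM in PV and 14.1 ± 2.65 FPKM in Drd2, and Cacnb3 9.90 ± 7.72 FPKM in PV and 14.8 ± 5.95 FPKM in Drd2 (SD, n = 3 each). The L-type gene Cacna1c stood lowest in PV, at 0.818 ± 0.264 FPKM. Its mean in Drd2 was 1.04 ± 1.04 FPKM, beside 1.02 ± 0.474 FPKM for Cacna1d there. By mean level over the 6 libraries, Cacnb4 lay above 75.5% of the 11478 genes tested and Cacnb3 above 68.3%, while Cacna1d lay above 4.44%. Between neighbours in the order of means, the ranges over libraries overlapped at every step in PV. In Drd2 they were apart at 2 steps, between Cacnb4 and Cacna2d1 and between Cacna1a and Cacna1c.

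**Figure D1:**
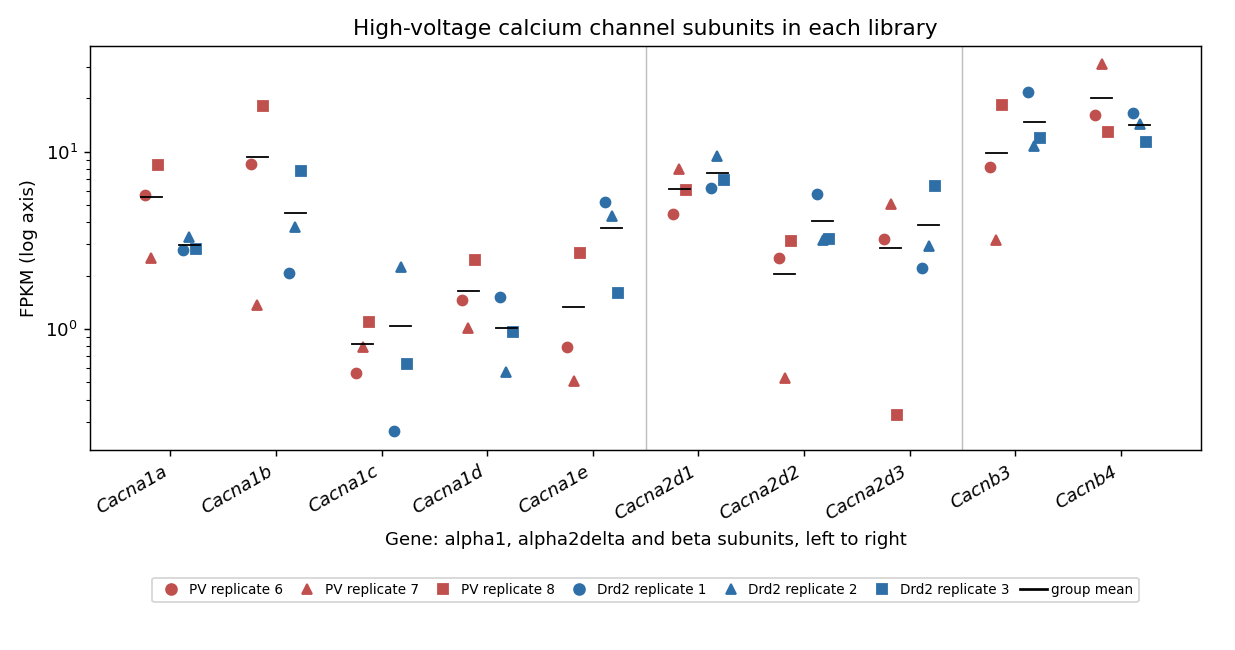
FPKM of the 10 members in each library on a log axis, α1 genes left, α2δ genes in the middle and β genes right, with PV in red and Drd2 in blue; each point is 1 library and the short bar is the group mean (n = 3). The groups overlap for every member except Cacna2d2, whose highest PV value (3.13 FPKM) lies just under its lowest Drd2 value (3.19 FPKM).

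No member passed the test between PV and Drd2. Genes that reached 1 FPKM in 3 or more libraries were tested with limma on log2(FPKM + 1), with Benjamini-Hochberg adjustment over all 11478 genes and a threshold of 0.05. This filter kept 9 of the 10 members and dropped Cacna1c. Of the 9, 0 passed after adjustment and 0 had an unadjusted p under 0.05, by limma and by limma voom on recovered reads alike. Over all tested genes 0.261% passed, 0.0436% as higher in PV and 0.218% as lower, and 12.8% had an unadjusted p under 0.05. Log2 folds were above 0 for 4 members and below 0 for 5, and their median was -0.27, beside -0.28 over all tested genes, of which 38.4% had a fold above 0 and 61.6% below 0. The number of cells behind a library is not given, so fewer cells of a type and less RNA per cell cannot be told apart. All 9 intervals of the fold covered 0, and they left room for differences of several-fold in either direction for some members, so these data do not show that the levels are alike.

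Among the pore genes, Cacna1a, the P/Q-type pore (ENSMUSG00000034656, chromosome 8, 84388440 to 84640246, plus strand), was at 5.70, 2.50 and 8.41 FPKM in PV libraries, against 2.78, 3.31 and 2.81 FPKM in Drd2 libraries, in the order of replicates given above. PV replicates 6 and 8 were above every Drd2 library and PV replicate 7 below every one, while the Drd2 values lay within a narrow range. The log2 fold was 0.61 ± 0.66 (SE; limma adjusted p = 0.744), with a 95% interval from -0.87 to 2.09.

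Cacna1b, the N-type pore (ENSMUSG00000004113, chromosome 2, 24603887 to 24763152, minus strand), showed the widest spread of the α1 genes. It was at 8.47, 1.36 and 18.1 FPKM in PV libraries, against 2.06, 3.74 and 7.77 FPKM in Drd2 libraries. The highest and the lowest of the 6 values were both in the PV group. The log2 fold was 0.58 ± 0.86 (SE; limma adjusted p = 0.817), with a 95% interval from -1.36 to 2.52, which is 0.391- to 5.74-fold on the scale of FPKM + 1. Without PV replicate 8 the log2 fold was -0.09, and without PV replicate 7 it was 1.42, neither past the threshold.

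Cacna1e, the R-type pore (ENSMUSG00000004110, chromosome 1, 154390731 to 154884501, minus strand), was at 0.789, 0.507 and 2.69 FPKM in PV libraries, against 5.18, 4.34 and 1.59 FPKM in Drd2 libraries. PV replicates 6 and 7 were below every Drd2 library, and PV replicate 8 exceeded Drd2 replicate 3, the library with the least Drd2 within its group. Its log2 fold of -1.03 ± 0.69 (SE; limma adjusted p = 0.560) was the farthest from 0 among the members, and the 95% interval ran from -2.57 to 0.50.

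The L-type members were the least abundant α1 genes in Drd2. Cacna1d (ENSMUSG00000015968, chromosome 14, 30039939 to 30491455, minus strand) was at 1.46, 1.01 and 2.46 FPKM in PV libraries, against 1.52, 0.573 and 0.967 FPKM in Drd2 libraries, and its log2 fold was 0.38 ± 0.56 (SE; limma adjusted p = 0.818). Cacna1c (ENSMUSG00000051331, chromosome 6, 118587240 to 119196418, minus strand) was at 0.568, 0.793 and 1.09 FPKM in PV libraries, against 0.264, 2.22 and 0.637 FPKM in Drd2 libraries. The groups overlapped for Cacna1c, and its single high value was in Drd2 replicate 2, the library with the most oligodendrocyte RNA, whose part in that value was not tested. With no filter on low values its log2 fold was -0.06, with a 95% interval from -1.61 to 1.49 (limma adjusted p = 0.968).

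Summed over the 5 α1 members, the level was 17.0, 6.17 and 32.7 FPKM in the PV libraries and 11.8, 14.2 and 13.8 FPKM in the Drd2 libraries. The SD was thus 13.4 FPKM in PV and 1.28 FPKM in Drd2, and the lowest and highest sums were both in PV libraries. The log2 ratio of the mean sums, PV over Drd2, was 0.49, and it was -0.19 without PV replicate 8 and 0.91 without PV replicate 7. The P/Q-, N- and R-type genes together made up 88.1%, 70.8% and 89.1% of the α1 sum in the PV libraries and 84.9%, 80.3% and 88.4% in the Drd2 libraries.

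Shares within the α1 sum do not depend on the scaling of a library, but they do depend on the exon lengths used. The share of Cacna1e was 4.64%, 8.21% and 8.20% in the PV libraries and 43.9%, 30.6% and 11.5% in the Drd2 libraries, so the groups did not overlap. Cacna1a took 33.5%, 40.5% and 25.7% in the PV libraries and 23.5%, 23.4% and 20.4% in the Drd2 libraries. These shares did not overlap, but the levels of Cacna1a did, and its largest share was in PV replicate 7, where its level was lowest. Cacna1b took 49.9%, 22.1% and 55.3% in the PV libraries and 17.5%, 26.4% and 56.4% in the Drd2 libraries. For Cacna1b the largest share was that of Drd2 replicate 3 and the groups overlapped. These shares are a description of 3 libraries against 3 and were not tested.

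**Figure D2:**
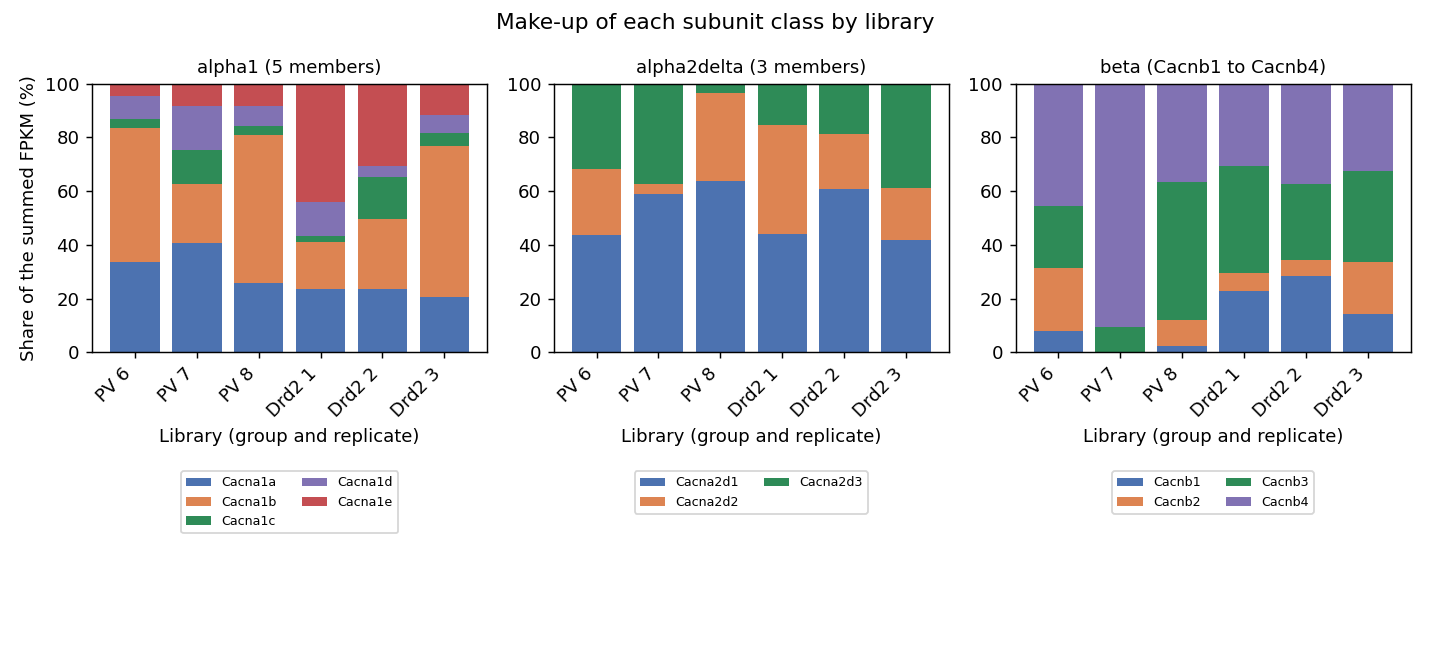
Share of each gene in the summed FPKM of its class (percent, y axis) for each library (x axis, PV left and Drd2 right), for the 5 α1 members, the 3 α2δ members and all 4 β genes including Cacnb1 and Cacnb2. Cacna1e fills 4.64% to 8.21% of the α1 sum in PV and 11.5% to 43.9% in Drd2, and Cacnb4 fills 90.6% of the β sum in PV replicate 7.

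Of the α2δ genes, Cacna2d1 (ENSMUSG00000040118, chromosome 5, 15934691 to 16374511, plus strand), which encodes the α2δ-1 protein bound by gabapentin, was the most abundant in both groups. It was at 4.43, 7.99 and 6.08 FPKM in PV libraries, against 6.26, 9.51 and 6.92 FPKM in Drd2 libraries. These values overlapped, with means of 6.17 ± 1.78 FPKM in PV and 7.56 ± 1.72 FPKM in Drd2 (SD). The log2 fold was -0.27 ± 0.57 (SE; limma adjusted p = 0.877), with a 95% interval from -1.56 to 1.02.

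Cacna2d2 (ENSMUSG00000010066, chromosome 9, 107399612 to 107529343, plus strand), whose α2δ-2 product is abundant in cerebellar Purkinje cells and also binds gabapentin, was at 2.51, 0.527 and 3.13 FPKM in PV libraries, against 5.74, 3.19 and 3.23 FPKM in Drd2 libraries. The groups did not overlap, with a gap of under 0.1 FPKM, which held for no other tested member. Of all tested genes 19.0% had groups apart, 13.1% lower in PV and 5.83% higher in PV. The log2 fold of -0.81 ± 0.68 (SE; limma adjusted p = 0.661) did not pass. Without PV replicate 7, the library with the fewest detected genes, it was -0.37.

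Cacna2d3 (ENSMUSG00000021991, chromosome 14, 28904943 to 29721864, minus strand), the gene of α2δ-3, was at 3.23, 5.05 and 0.328 FPKM in PV libraries, against 2.22, 2.95 and 6.44 FPKM in Drd2 libraries. Its value in PV replicate 8 was the lowest of any member outside Cacna1c, in a library where Cacna1a, Cacna1b and Cacna1d were at their highest. The log2 fold was -0.49 ± 0.78 (SE; limma adjusted p = 0.831) and became 0.15 without PV replicate 8. The α2δ sum was 10.2, 13.6 and 9.53 FPKM in the PV libraries and 14.2, 15.6 and 16.6 FPKM in the Drd2 libraries, without overlap. It was not tested, and of all tested genes 13.1% were lower in PV without overlap. Within that sum Cacna2d1 took 43.6% to 63.7% in PV and 41.7% to 60.8% in Drd2 libraries, and Cacna2d2 3.89% to 32.8% in PV and 19.4% to 40.4% in Drd2 libraries. Relative to the α1 sum the α2δ sum was 0.599, 2.20 and 0.291 in the PV libraries and 1.21, 1.10 and 1.20 in the Drd2 libraries. The ratio was thus nearly constant over the Drd2 libraries, and the PV libraries lay on both sides of it.

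Among the β genes, Cacnb4 (ENSMUSG00000017412, chromosome 2, 52428320 to 52676831, minus strand), whose loss causes the ataxia and seizures of lethargic mice, was at 16.0, 31.1 and 13.0 FPKM in PV libraries, against 16.6, 14.3 and 11.3 FPKM in Drd2 libraries. Apart from PV replicate 7, all libraries lay between 11.3 and 16.6 FPKM. The log2 fold was 0.40 ± 0.51 (SE; limma adjusted p = 0.781), with a 95% interval from -0.74 to 1.54, and it was 0.05 without PV replicate 7.

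Cacnb3 (ENSMUSG00000003352, chromosome 15, 98630840 to 98644529, plus strand), a β gene widely expressed in brain, was at 8.18, 3.18 and 18.3 FPKM in PV libraries, against 21.6, 10.8 and 11.9 FPKM in Drd2 libraries. PV replicate 8 lay within the Drd2 range and the other PV libraries below it. The log2 fold was -0.74 ± 0.67 (SE; limma adjusted p = 0.684), and it was -0.18 without PV replicate 7 and -1.29 without PV replicate 8. The ratio of the 2 β genes shifted most in PV replicate 7, where Cacnb4 made up 90.7% of their sum. It made up 66.2% in PV replicate 6 and 41.5% in PV replicate 8, against 43.5%, 57.1% and 48.7% in the Drd2 libraries.

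**Figure D3:**
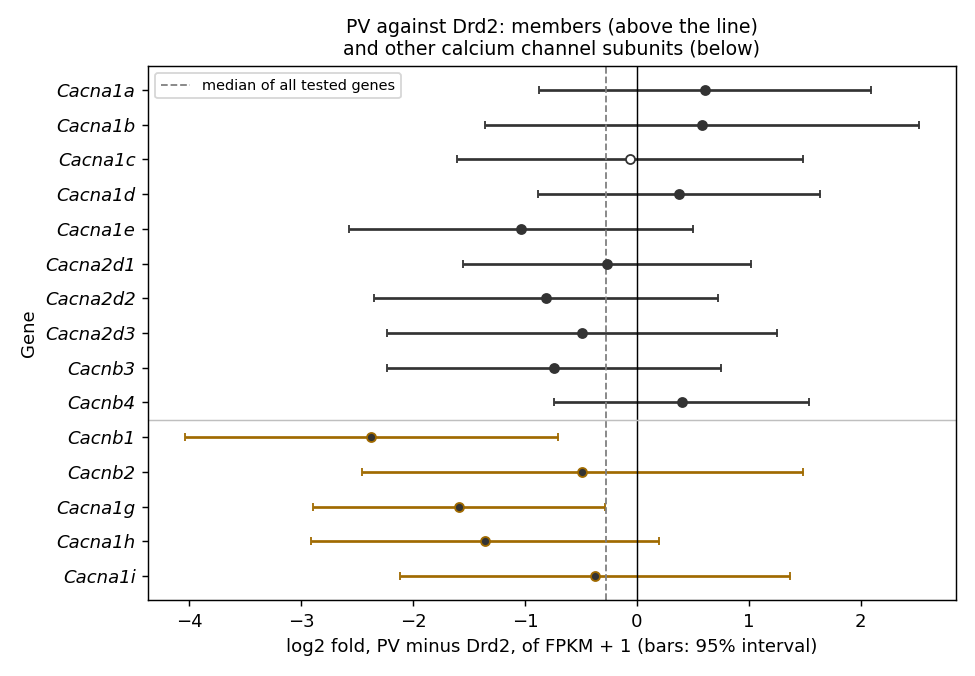
Log2 folds of FPKM + 1, PV minus Drd2 (x axis), with 95% intervals from limma for the 10 members (above the line) and 5 other calcium channel genes (below). The open circle marks Cacna1c, fitted with no filter on low values, and the dashed line is the median of all tested genes (-0.28). The intervals of all 10 members cover 0, and those of Cacnb1 and Cacna1g lie below it.

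Much of the spread within the PV group lay in PV replicates 7 and 8. Of the 10 members, 5 had their lowest value of all libraries in PV replicate 7 (Cacna1a, Cacna1b, Cacna1e, Cacna2d2 and Cacnb3), and Cacnb4 had its highest. How many of all tested genes were lowest there was not counted. In PV replicate 8, 3 members had their highest value (Cacna1a, Cacna1b and Cacna1d) and 1 its lowest (Cacna2d3). The members' median was 1.93 FPKM in PV replicate 7, and 3.83 and 4.60 FPKM in PV replicates 6 and 8, against 3.98, 3.53 and 4.83 FPKM in the Drd2 libraries. The part that the low number of detected genes in PV replicate 7 had in these values was not tested. With PV replicate 7 and Drd2 replicate 3 both left out, the log2 fold of Cacna1b was 1.82 and that of Cacna1a 0.98, and no member passed.

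Exons of 4 members overlap those of another gene on the opposite strand, and no source used here says whether the counting used strand. The overlaps are 435 bases of Cacna1a with Gm16183, 589 of Cacna1d with Chdh, 82 of Cacna2d2 with Gm17141 and 1433 of Cacnb4 with A430018G15Rik. Gm16183 was at 0 to 5.06 FPKM in the PV libraries, highest in PV replicate 8, and at 0.0497 to 1.30 FPKM in the Drd2 libraries. The other 3 partners stayed at or below 1.27 FPKM in PV and 0.991 FPKM in Drd2 libraries. FPKM per gene does not separate splice forms, which differ in gating for several of these channels.

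Of 7 further high-voltage subunit genes, 3 reached 1 FPKM in any library and 2 were tested (Cacnb1 and Cacnb2), and neither passed. Cacna1s, Cacng1 and Cacng6, known from skeletal muscle channels, were listed at 0 in all 6 libraries, and the retinal L-type gene Cacna1f stayed at or below 0.373 FPKM in PV and 0.812 FPKM in Drd2 libraries. Cacna2d4 was listed at 0 in all libraries but Drd2 replicate 2, where it was at 2.00 FPKM. Cacnb1, the β subunit of skeletal muscle that neurons also express, was listed at 0 in PV replicate 7 and was at 2.78 and 0.818 FPKM in PV replicates 6 and 8, against 12.4, 10.8 and 5.03 FPKM in the Drd2 libraries. The groups did not overlap, and of all tested genes 13.1% were lower in PV without overlap. The log2 fold of Cacnb1 was -2.37 ± 0.74 (SE; limma adjusted p = 0.216). Cacnb2, at 8.19, 0.0655 and 3.41 FPKM in PV and 3.58, 2.36 and 6.73 FPKM in Drd2 libraries, gave -0.49 as log2 fold (limma adjusted p = 0.852), which was 0.37 without PV replicate 7. Cacnb1 made up 7.90%, 0% and 2.30% of the summed level of the 4 β genes in PV and 22.9%, 28.2% and 14.4% in Drd2 libraries. That sum was 35.2, 34.4 and 35.5 FPKM in the PV libraries and 54.3, 38.3 and 35.0 FPKM in the Drd2 libraries. On the FPKM scale its PV values lay close together, while the share of Cacnb4 in it was 45.6%, 90.6% and 36.5% in the PV libraries. Total FPKM over all genes differed between these libraries (394649, 447842 and 367964), and the sum was not examined under other scalings.

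The 3 T-type genes, whose channels open at more negative voltages and support burst firing, all had a fold below 0 and none passed. Cacna1g was at 0.218, 0.852 and 0.0348 FPKM in PV libraries, against 2.13, 4.72 and 2.55 FPKM in Drd2 libraries, without overlap (log2 fold -1.59 ± 0.58, SE; limma adjusted p = 0.292). Cacna1h had a log2 fold of -1.36 and Cacna1i of -0.37 (limma adjusted p = 0.453 and 0.871), and that of Cacna1i was 0.24 without PV replicate 7. Among the T-type genes the groups also did not overlap for Cacna1h. Over all tested genes, 13.1% were lower in PV without overlap and 61.6% had a fold below 0. The T-type sum was 2.90, 2.38 and 8.29 FPKM in the PV libraries, against 9.65, 14.7 and 9.66 FPKM in the Drd2 libraries.

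Genes that tether release-site channels or regulate them were read from the same fit. Of 15 active zone and release genes tested, 0 passed in limma and 2 had an unadjusted p under 0.05. Of all tested genes 12.8% had such a p, so the count of 2 does not set this list apart. Stx1a, the gene of syntaxin-1A, a SNARE protein that binds N- and P/Q-type channels, was listed at 0 in PV replicate 7 and was at 1.79 and 0.172 FPKM in PV replicates 6 and 8, against 24.5, 21.0 and 15.5 FPKM in the Drd2 libraries. The fold of -3.82 (log2) ± 0.67 (SE; limma adjusted p = 0.0501) lay at the threshold. The SNARE gene Snap25 was at 751, 1109 and 766 FPKM in PV libraries, against 202, 331 and 503 FPKM in Drd2 libraries, and its log2 fold was 1.41 ± 0.42 (SE; limma adjusted p = 0.196). The median fold over these 15 genes was -0.20. Of 11 regulators tested (such as calcineurin, CaM kinases and direct channel inhibitors), 0 passed in limma, 0 had an unadjusted p under 0.05, and the median was -0.15. The kinase gene Camk2a had a log2 fold of -1.45 and the gene of the β-binding inhibitor Cbarp of -0.87 (limma adjusted p = 0.436 and 0.542).

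Across the 6 libraries, the most abundant member of each class followed different genes. Pearson r on log2(FPKM + 1) was taken with the tested genes other than members, predicted genes (Gm or Rik names), unnamed genes and pseudogenes. Among these, r with Cacna1b was highest for Setd7 (0.988) and Kif26a (0.983). It was highest with Cacna2d1 for Vsnl1 (0.995) and Ndufaf3 (0.963), and with Cacnb4 for Upf2 (0.996) and Zfp641 (0.986). Within the classes, r was 0.85 between Cacna1b and Cacna1a, -0.02 between Cacna1b and Cacna1e, and -0.76 between Cacnb4 and Cacnb3. PV replicate 7 weighs heavily in the values of r with Cacnb4. There Cacnb4 was at its highest (31.1 FPKM), Cacnb3 at its lowest (3.18 FPKM) and Upf2 at 18.4 FPKM, against 0.866 to 3.76 FPKM for Upf2 in the other libraries. No r was taken without that library, so an inverse relation of the β genes is not shown. Each r rests on 6 libraries that share their depth and cell content, and the highest r over so many genes is high by selection.

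**Figure D4:**
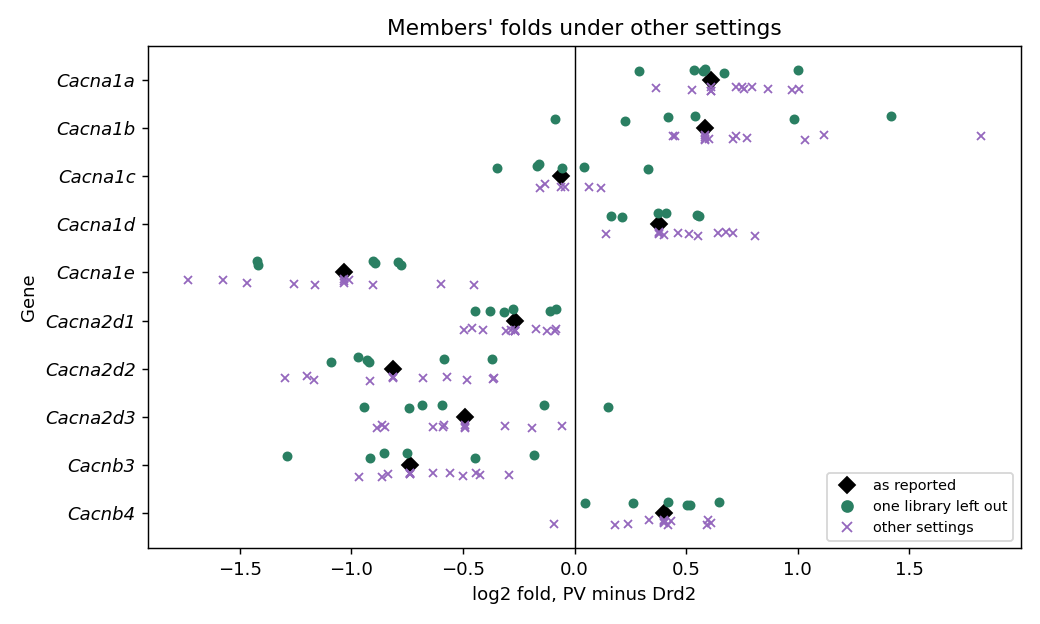
Log2 folds of the 10 members, PV minus Drd2 (x axis), as reported (black diamonds), with 1 library left out (green circles) and under other scalings, pseudocounts, filters and variance models (crosses). The folds of Cacna1e stay between -1.73 and -0.45, while those of Cacna1b run from -0.09 to 1.82.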

How the data were processed

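The deposited table holds FPKM values made by the authors for each gene and library. The submitters' processing notes name STAR beside the builds mm10, hg38 and GRCh38. No source used here gives the quantifier, annotation release or strand setting. Positions and exon lengths came from GENCODE M21 (mm10), which held 94.1% of the gene identifiers. Low FPKM times exon length fell on whole reads (within 0.01 read for at least 97.9% of values of at most 20 reads), which gave the denominators and reads.

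Values of log2(FPKM + 1) were compared, PV minus Drd2, in limma 3.58.1 under R 4.3.3 (trend on mean intensity, two-sided), a scale that understates folds of weakly expressed genes. The filter asked for 1 FPKM or more in 3 or more libraries. Standard errors and 95% intervals are from that fit. A check of the fit on simulated data put large changes into genes more abundant than most members. It scored calls and the bias of folds, not the coverage of these intervals. The labels call the libraries biological replicates.

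The rule for the members uses names and no values, but members, gene lists and tests were chosen with earlier results of these data known. Named genes are all members, up to 3 genes with the smallest p in each other list plus any that passed, Pvalb, Drd2, Slc17a6, Foxb1, and for the most abundant member of each class the 2 genes most correlated with it, leaving out members, predicted genes, unnamed genes and pseudogenes. Some genes that this rule names are not reported here. Cacna1f, Cacna1s, Cacna2d4, Cacng1 and Cacng6 were named to account for their list. Further settings and leaving out libraries were tried as alternatives.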

Additional observations from a re-analysis of the deposited data

How the results depend on the processing

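No member passed in any of the 19 alternatives, and 1 had an unadjusted p under 0.05, with PV replicate 7 and Drd2 replicate 3 both left out (Cacna1b, log2 fold 1.82, limma adjusted p = 0.390). Over all genes, 30 passed as reported (5 higher and 25 lower in PV), against 4 with a pseudocount of 0.1 FPKM, 68 with 5 FPKM, 0 with no filter (limma; 1509 at an unadjusted p under 0.05), 68 with quantile normalization (22 higher and 46 lower), 4 after rescaling over nuclear protein-coding genes, 46 with no intensity trend, 53 with robust empirical Bayes, 105 with array weights and 18 without PV replicate 7 and Drd2 replicate 3. Leaving out 1 library gave 1 to 56. Among the channel partners 1 gene, Stx1a, passed with a pseudocount of 5 FPKM, quantile normalization, no trend, robust empirical Bayes and array weights (adjusted p 0.0315 to 0.0477), and 0 to 1 passed with 1 library left out. Signs turned for Cacnb4 without PV replicate 7 and Drd2 replicate 3 (-0.091), for Cacnb2 with quantile normalization (0.14), array weights (0.10) and those 2 libraries left out (0.70), for Cacna1c, which did not pass the filter and had -0.06, with a pseudocount of 0.1 FPKM (0.063) and rescaling over nuclear protein-coding genes (0.12), for Cacna1i with quantile normalization (0.083) and for Slc17a6 with TPM (-0.11). With 1 library left out, folds ran from -0.089 to 1.42 for Cacna1b, -0.35 to 0.33 for Cacna1c, -0.94 to 0.15 for Cacna2d3, -1.18 to 0.37 for Cacnb2, -0.89 to 0.24 for Cacna1i and -0.034 to 0.17 for Slc17a6. The median fold of all genes was -0.28 as reported, -0.50 with TPM, 0.05 with quantile normalization and -0.12 with median-of-ratios scaling. The causes were not tested. No paired analysis was possible because the groups share no replicate number. With 3 libraries a group, the intervals of the members' folds were wide.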
